A study of Sus scrofa with 32 samples.

Results

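Cells of the pig ileum with an intermediate level of JCHAIN RNA are described here, a set defined to hold B cells on the way to antibody secretion. A cell barcode was taken when it had at least 1250 UMIs (unique molecular identifiers, 1 per captured RNA molecule), at least 550 genes and at most 12.5% mitochondrial UMIs. JCHAIN had to make up at least 0.5% and less than 10% of its UMIs, at least 1 UMI of PRDM1, XBP1 or IRF4 had to be present, and CD3E and EPCAM had to be at 0. Of 35386 ileal barcodes that passed the depth thresholds (48629 with blood), 215 met this rule and are called JCHAIN-intermediate cells below. The cells were thus chosen by their measured RNA, and the levels of JCHAIN, PRDM1, XBP1, IRF4, CD3E and EPCAM are given as description, with no test.

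When a B cell becomes an antibody-secreting cell (ASC), the transcription factors IRF4, PRDM1 (Blimp-1) and XBP1 turn off the B cell program around PAX5 and enlarge the endoplasmic reticulum (ER), where antibody chains are folded and glycosylated. JCHAIN encodes the joining chain that links IgA or IgM into polymers, the forms carried across the gut epithelium. In the gut, B cells are activated in Peyer's patches, organized follicles with germinal centers, and the ASCs that leave the patches home to the mucosa through receptors such as CCR10 and the integrin formed by ITGA4 and ITGB7.

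Ileum and blood came from 2 mixed-breed pigs aged 7 weeks, a female (pig 1) and a male (pig 2), and the labels name no treatment. Each ileum was dissected in 3 ways and sequenced on the droplet-based 10x platform: pieces with Peyer's patches only (PP), pieces without any patch (non-PP) and cross-sections holding tissue with and without patches (whole ileum). Peripheral blood mononuclear cells (PBMCs) of the same pigs made up the remaining pair of libraries. Pig 1 and pig 2 libraries held 40111934 and 33166907 UMIs for PP, 28055545 and 33595294 for whole ileum, 24664414 and 21134542 for non-PP, and 36465389 and 38240907 for PBMC.

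One library went against its label. Y-linked genes reached 207 CPM (UMIs per 1000000) in the library labelled whole ileum of pig 1, the female, beside 0.161 and 0.224 in PP and non-PP of the same pig and 185 to 226 in the ileal libraries of pig 2. Of its 32 JCHAIN-intermediate cells, 14 had a Y-linked UMI. It is called the library labelled whole ileum of pig 1 throughout, and the main changes in calls and counts without it are given beside the results or in the last section. Results given as without pig 2 still hold this library, so they do not leave out all RNA of a male. No pair among the 15 pairs of ileal libraries shared a JCHAIN-intermediate barcode, and 8 of the 215 barcodes also passed the depth thresholds in another library.

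The 215 cells spanned almost the whole permitted range of JCHAIN, from 0.509% to 9.99% of their UMIs with a median of 1.77%. They held a median of 5504 UMIs (lowest 1470, highest 20897) and 1135 genes. XBP1 was present in 206 of them (95.8%), PRDM1 in 100 (46.5%) and IRF4 in 84 (39.1%). All 3 factors were seen together in 42 cells, and 73 (34.0%) met the rule through XBP1 alone. CD83, an activation marker of B cells and dendritic cells taken here as a further mark of these cells, was seen in 45 (20.9%).

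Most of the cells carried B cell RNA, and a part also carried T cell RNA. At least 1 UMI of CD79A, CD79B, MS4A1 or PAX5 was present in 200 of 215 (93.0%), and at least 3 UMIs of the antigen receptor chains CD79A and CD79B in 127 (59.1%). At least 1 UMI of the T cell genes CD3D, CD3G, CD2 or TRDC was present in 71 (33.0%), most often of CD2, in 41 cells. The rule itself had removed 75 cells of the same JCHAIN range for a CD3E UMI and 14 for an EPCAM UMI, out of 300. A doublet score above 0.25 was found in 6 of the 215, a cut that called 23.6% to 44.7% of simulated doublets per ileal library.

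The 6 cells of the non-PP library of pig 2 stood apart from those of the patch libraries. All 6 had T cell UMIs and none reached 3 CD79 UMIs. Their summed T cell markers were at 868 CPM, against 145 to 226 in the PP and whole ileum libraries, and their cytotoxic markers, led by GNLY, were at 4549, against 82.7 to 375. A single one of these 6 barcodes held 133 of the 183 GNLY UMIs, and without it the cytotoxic sum was 1401. Neither of the cells from non-PP of pig 1 reached 3 CD79 UMIs. None of the 8 non-PP cells had a CD79A UMI, while a CD79B UMI was seen in 1 cell of pig 1 and 4 of pig 2.

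Markers of other cell types were also measured in the 215 cells together. All 10 listed T cell markers were detected, summing to 187 CPM with CD247 the most abundant at 45.3. In the other CD79-positive cells defined below they summed to 487, of which CD247 made up 308. CD2 was seen in 19.1% of JCHAIN-intermediate and 8.76% of other CD79-positive cells (4.69% and 3.51% at a common depth of 1250 UMIs), CD3D in 5.12% and 3.03% (1.52% and 1.17%) and CD3G in 9.30% and 7.51% (2.24% and 3.01%). Of 6 epithelial markers 3 were detected, summing to 14.6, with KRT8 the most abundant and KRT18, VIL1 and PIGR at 0. Of 7 macrophage and monocyte markers 6 were detected, summing to 16.01, with AIF1 the most abundant and CSF1R at 0, and KIT and MS4A2 of mast cells, XCR1 of dendritic cells and COL3A1 and DCN of stromal cells were also at 0. A count of 0 allows up to 2.09 CPM over these cells, an allowance that covers counting error only. The 5 plasmacytoid dendritic markers in the matrices summed to 426, led by GZMB at 247, and stood at 4057 in non-PP of pig 2 beside 202 to 483 in the patch libraries. One barcode of that library held 123 of the 355 GZMB UMIs, and without it the sums were 342 over all cells and 1322 in the library. Of 5 cytotoxic NK and ILC markers 4 were detected and NCR1 was at 0. They summed to 278, led by GNLY at 232, against 197 in other CD79-positive cells, but at 181 without the barcode that held 133 of the 333 GNLY UMIs. The part of such RNA in the results below was not tested, beyond the values given without cells that had T cell UMIs.

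In the libraries with patches, near-empty droplets, which hold free RNA, had a JCHAIN share near the lower edge of the rule. The median CD3E-positive or other CD79-positive cell had far less. JCHAIN made up 0.353% and 0.455% of the UMIs of near-empty droplets in PP of pig 1 and pig 2, and 0.399% and 0.550% in the libraries labelled whole ileum of pig 1 and pig 2, against 0.0519% and 0.111% in the non-PP libraries. The median JCHAIN share per ileal library was 0% to 0.0119% in CD3E-positive cells and 0% to 0.0393% in other CD79-positive cells. Among CD3E-positive cells, which should not make JCHAIN, a few fell in the JCHAIN range with a PRDM1, XBP1 or IRF4 UMI. They made up 0.468% and 0.666% in PP of pig 1 and pig 2 and 0.468% and 0.885% in the libraries labelled whole ileum. In non-PP they made up 0.147% and 0.346%, below every library with patches. Just below the floor, at 0.4% to 0.5% JCHAIN, lay 29 cells with 2.61 CD83 UMIs per 10000, and just above it, at 0.5% to 0.6%, lay 22 with 2.70. At the upper edge 11 cells had 9% to 10% JCHAIN and 9 had 10% to 11%, and none of these 20 had a CD83 UMI.

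JCHAIN-intermediate cells were found mainly where Peyer's patches were included. In PP they made up 56 of 7337 cells in pig 1, or 0.763% (exact 95% Clopper-Pearson interval 0.577 to 0.990), and 57 of 6872 in pig 2, or 0.829% (0.629 to 1.07). In whole ileum there were 32 of 5789 in the library labelled pig 1, or 0.553% (0.378 to 0.779), and 62 of 7704 in pig 2, or 0.805% (0.618 to 1.03). In non-PP there were 2 of 3908 in pig 1, or 0.0512% (0.00620 to 0.185), and 6 of 3776 in pig 2, or 0.159% (0.0583 to 0.346). Every PP and whole ileum library thus lay above both non-PP libraries, and the intervals of these sets did not overlap. CD3E-positive cells in the JCHAIN range with a PRDM1, XBP1 or IRF4 UMI had the same order, as given above. The part of such background in the shares was not tested.

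The mean share was 0.796% ± 0.0468 (SD, n = 2) in PP and 0.105% ± 0.0762 (SD, n = 2) in non-PP, and the exact two-sided permutation test over libraries gave p = 0.3333, the smallest that 2 against 2 libraries allow, with no whole ileum library in it. With whole ileum added to PP the mean was 0.738% ± 0.126 (SD, n = 4), and the exact permutation test gave p = 0.133, again the smallest possible. The intervals cover counting error only, and the order rests on 1 library per dissection and pig. Among B-lineage cells (JCHAIN-intermediate, JCHAIN-very-high and other CD79-positive together) the order was the opposite: 1.87% and 1.92% in PP, 2.17% and 1.597% in whole ileum, and 11.8% (interval 1.46 to 36.4) and 10.7% (4.03 to 21.9) in non-PP, where only 17 and 56 B-lineage cells were found (exact permutation p = 0.3333 for PP against non-PP). Without cells that had T cell UMIs this order was lost in pig 2: the non-PP shares of B-lineage cells were 11.8% and 0%, against 1.22% to 1.28% in PP (difference -4.63 percentage points, exact permutation p = 1).

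**Figure D1:**
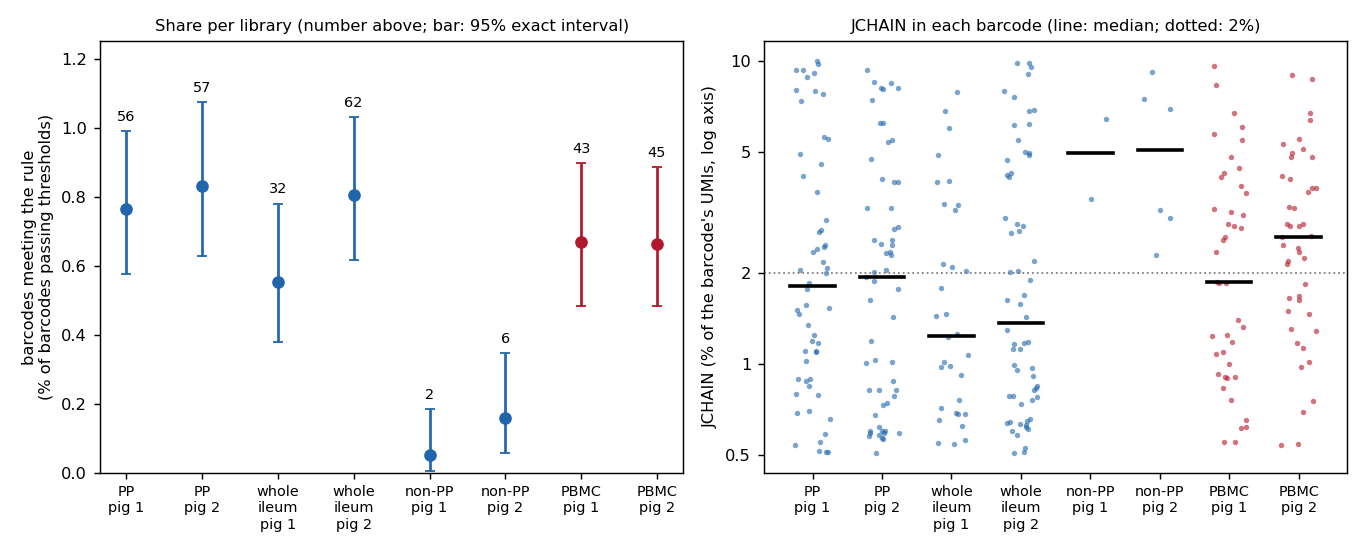
Left, JCHAIN-intermediate cells as a percent of the cells passing the depth thresholds in each of the 8 libraries, with the number of cells above each point and exact 95% intervals as bars (ileum blue, blood red). Right, JCHAIN as a percent of UMIs in each of these cells on a log axis, with the median as a black line and 2% dotted. The 4 libraries with Peyer's patches hold 32 to 62 cells each and the non-PP libraries 2 and 6, and in the patch libraries the cells fill the range from 0.5% to 10%.

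Cells past the upper edge of the rule were about as many as those inside it. With JCHAIN at 10% or more, the rule being otherwise the same, 215 ileal cells were found, called JCHAIN-very-high cells. JCHAIN-intermediate cells made up 60.9% (interval 50.1 to 70.9) and 51.4% (41.7 to 60.95) of the 2 classes together in PP of pig 1 and pig 2, and 52.5% (39.3 to 65.4) and 42.2% (34.1 to 50.6) in the libraries labelled whole ileum. In blood the same rule gave 43 and 45 cells beside 1 and 2 JCHAIN-very-high cells, so that JCHAIN-intermediate cells made up 97.7% (88.0 to 99.9) and 95.7% (85.5 to 99.5).

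The next comparison asked how JCHAIN-intermediate cells differed from B cells that had not reached this JCHAIN level. These were 10962 ileal cells with JCHAIN below 0.5%, at least 3 CD79A and CD79B UMIs and no CD3E or EPCAM UMI, called other CD79-positive cells. The CD79 minimum applied to them alone, as 127 of the 215 JCHAIN-intermediate cells reached it, so a lower level of CD79A and CD79B and of genes that follow them in JCHAIN-intermediate cells was partly fixed by that choice. UMIs were summed per class and per pig as labelled and tested with edgeR on n = 2 sums per class, with Benjamini-Hochberg adjustment. The pig 1 sum of 90 JCHAIN-intermediate cells held the 32 of the library labelled whole ileum of pig 1. The 2 sums may thus not be 2 separate animals, here and in every comparison below. Both classes were set apart by JCHAIN in these same cells, so genes that follow JCHAIN were bound to differ. JCHAIN-intermediate cells also had to hold a PRDM1, XBP1 or IRF4 UMI, and the other class did not. A higher level of genes that follow these factors was thus partly fixed by the rule as well. The p-values measure only the spread between the 2 sums of each class.

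A few abundant features took unequal shares of the classes, which makes levels of other genes depend on how libraries are scaled. JCHAIN made up 3.24% of the UMIs of JCHAIN-intermediate, 18.3% of JCHAIN-very-high and 0.041% of other CD79-positive cells. Together with 6 abundant features that carry no symbol in the matrices it made up 35.5%, 65.1% and 1.35%. Library sizes were scaled with TMM, which trims extreme genes, and 2 kinds of plain totals were tried in its place. Totals without JCHAIN left out JCHAIN and the 1 feature with an immunoglobulin symbol, which carried almost no UMIs, and thus still held the 6 unnamed features. Totals without the 7 features left out all of these abundant features. The first moved the median log2 difference of all genes to -0.71 against other CD79-positive and 0.74 against JCHAIN-very-high cells, the second to -0.15 and 0.098.

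JCHAIN-intermediate cells held far more RNA of the secretory apparatus than other CD79-positive cells. Of 6328 genes tested, 30.9% were called, 17.9% higher and 13.0% lower, with a median log2 difference of -0.03. In the ER translocation and glycosylation list 25 of 26 tested genes were higher and none lower (median log2 difference 2.80), in the ER folding list 23 of 24 (3.42), and in the ER to Golgi transport list 12 of 12 (2.15). As many genes were called in these 3 lists without the library labelled whole ileum of pig 1. In the list of ER-associated degradation and stress 12 of 16 features were higher (1.53), and SYVN1, a symbol carried by 2 features and therefore uncertain, was the one lower.

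Named genes of these lists showed how large the gap was. Values per pig are CPM on TMM-scaled library sizes, pig 1 before pig 2. TXNDC5, a protein disulfide isomerase, was at 369 and 361 in JCHAIN-intermediate cells and at 7.63 and 7.40 in other CD79-positive cells, a log2 difference of 5.60 ± 0.188 (SE, edgeR adjusted p = 6.39e-09). FKBP11, an ER prolyl isomerase, was at 1043 and 801 against 27.6 and 26.6. MZB1, an ER co-chaperone of antibody assembly, was at 3477 and 2952 against 175 and 194, and PRDX4, an ER peroxidase, at 893 and 843 against 32.8 and 32.9. In each of these genes the lowest JCHAIN-intermediate sum lay more than 10-fold above the highest sum of the other class. SEC11C, a signal peptidase subunit, differed by 4.35 ± 0.184, LMAN1, a cargo receptor for glycoproteins, by 4.32 ± 0.190, EDEM2, which trims misfolded glycoproteins, by 2.95 ± 0.169, and SURF4, another cargo receptor, by 2.92 ± 0.160.

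Surface receptors and homing genes of ASCs were higher as well. TNFRSF17, which encodes the survival receptor BCMA, was at 67.1 and 88.6 CPM in JCHAIN-intermediate cells and at 0.639 and 0.408 in other CD79-positive cells, a log2 difference of 7.25 ± 0.277 (SE, edgeR adjusted p = 1.14e-08). CCR10, the receptor for the mucosal chemokine CCL28, was at 133 and 173 against 0.943 and 1.18 (7.15 ± 0.25, adjusted p = 6.78e-09). In neither gene did the classes overlap. TNFRSF17 was seen in 31.2% of JCHAIN-intermediate cells and 0.652% of CD3E-positive cells, and CCR10 in 34.4% and 0.869%, at median depths of 5504 and 2683 UMIs (9.35% and 0.214%, and 13.4% and 0.275%, at 1250 UMIs).

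In the list of plasma cell surface and survival genes 7 of 9 were higher and none lower (median 3.17). They included TNFRSF13B (TACI, 3.75 ± 0.236), CD38 (3.17 ± 0.197) and ELL2 (3.76 ± 0.205), an elongation factor that favours the secreted form of antibody mRNA. Of 9 homing genes 6 were higher: besides CCR10 these were ITGB7 (3.51 ± 0.212), ITGA4 (2.29 ± 0.190), GPR183 (2.07 ± 0.181), CCR9 and CXCR3. CXCR4 and ITGB1, the remaining called homing genes, were lower.

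The B cell program was lower, though not absent. Of 15 B identity genes tested 12 were lower and none higher (median -1.71). MS4A1, which encodes CD20, was at 125 and 169 CPM against 498 and 472 in other CD79-positive cells, a log2 difference of -1.71 ± 0.185 (SE, edgeR adjusted p = 2.85e-05). PAX5, the factor that maintains B cell identity, was at 19.2 and 21.6 against 85.4 and 79.6 (-2.005 ± 0.215). The JCHAIN-intermediate sums of these genes were all below those of the other class. SPIB differed by -2.76 ± 0.210 and ID3 by -1.89 ± 0.184. MS4A1 was seen in 40.0% of JCHAIN-intermediate cells, 85.3% of other CD79-positive cells and 11.5% of CD3E-positive cells (16.2%, 61.1% and 6.74% at 1250 UMIs).

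Germinal center and cell cycle genes were lower as well. Of 9 germinal center genes 8 were lower (median -2.21), among them ELL3, at 20.8 and 35.2 against 210 and 231 (-2.93 ± 0.225), and S1PR2, a receptor that keeps B cells in the follicle (-2.88 ± 0.277). Of 23 cell cycle genes 17 were lower and none higher (median -0.96), with CENPF at -1.86 ± 0.209 and TYMS, of thymidylate synthesis, at -1.54 ± 0.187. Of 6 resting and recirculation genes FOXP1 was the only one called (-1.01 ± 0.226, edgeR adjusted p = 0.0055), a call lost without PP of pig 1, without pig 2 and without the cells that had T cell UMIs.

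Activation and antigen presentation genes split. Of 11 early activation genes 6 were higher (BCL2A1, CD69, CD80, EGR1, NFKBIA and NR4A1) and 2 lower (the costimulatory molecules CD86 and CD40), with a median of 0.85 (3 and 3 with totals without JCHAIN, 6 and 2 with totals without the 7 features). CD69, an early activation marker that also holds lymphocytes in tissue, was at 486 and 392 against 144 and 102 CPM (1.83 ± 0.234), and NR4A1, an immediate early nuclear receptor, differed by 1.80 ± 0.288. CD86 differed by -2.12 ± 0.259 and CD40 by -1.30 ± 0.202. CD83 was at 113 and 65.9 against 112 and 94.9, a log2 difference of -0.24 ± 0.239 (edgeR adjusted p = 0.489), and its groups overlapped. CD83 was called lower with totals without JCHAIN and not with totals without the 7 features.

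Of 7 MHC class II genes 3 were lower and none higher (median -0.81): SLA-DMB (-2.03 ± 0.196) and SLA-DMA (-1.82 ± 0.187), which form the molecule that loads peptides, and SLA-DOA (-2.43 ± 0.433), part of its inhibitor. The presenting chains themselves did not pass the test, with SLA-DRA at 829 and 955 against 1083 and 962 CPM (-0.20 ± 0.175, adjusted p = 0.434) and SLA-DQB1 at -0.37 ± 0.187. With totals without the 7 features the same 3 genes were lower (median -0.93), and with totals without JCHAIN, where the median of all genes was -0.71, all 7 were called lower (median -1.50). CD83 and SLA-DRA each changed sign under other alternatives.

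Beyond the lists, the genes with the widest called gaps were MGP (7.77 ± 0.521), TLCD4 (6.53 ± 0.294), AQP3, a water and glycerol channel (6.29 ± 0.210), and PDIA5, another disulfide isomerase (5.65 ± 0.261), on the higher side. MGP rested on 79 UMIs in 2 JCHAIN-intermediate cells, 49 of them in 1 cell. On the lower side, besides genes already named, stood FADS3 (-3.28 ± 0.337), the homeobox factor HHEX (-3.19 ± 0.288) and IL4I1 (-3.01 ± 0.406). Counts of calls depended on scaling: 1133 genes were higher and 824 lower, but 600 and 3236 with totals without JCHAIN and 993 and 1102 with totals without the 7 features. When JCHAIN-intermediate cells also had to reach 3 CD79 UMIs, 539 were lower in place of 824. Without the library labelled whole ileum of pig 1, 875 were higher and 572 lower.

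On the other side of the range, JCHAIN-intermediate cells were compared with the JCHAIN-very-high class, which had a median of 7934 UMIs per cell. The same fit and the same JCHAIN-intermediate sums were used, so this comparison and the one above are not independent. Of 6330 genes tested 155 (2.45%) were called, 58 (0.916%) higher and 97 (1.53%) lower in JCHAIN-intermediate cells, with a median log2 difference of 0.03. With the pig as a block 198 were higher and 267 lower, and without the library labelled whole ileum of pig 1 only 7 and 21. With totals without the 7 features 81 were higher and 82 lower, and with totals without JCHAIN, which moved the median of all genes to 0.74, 1779 and 36.

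**Figure D2:**
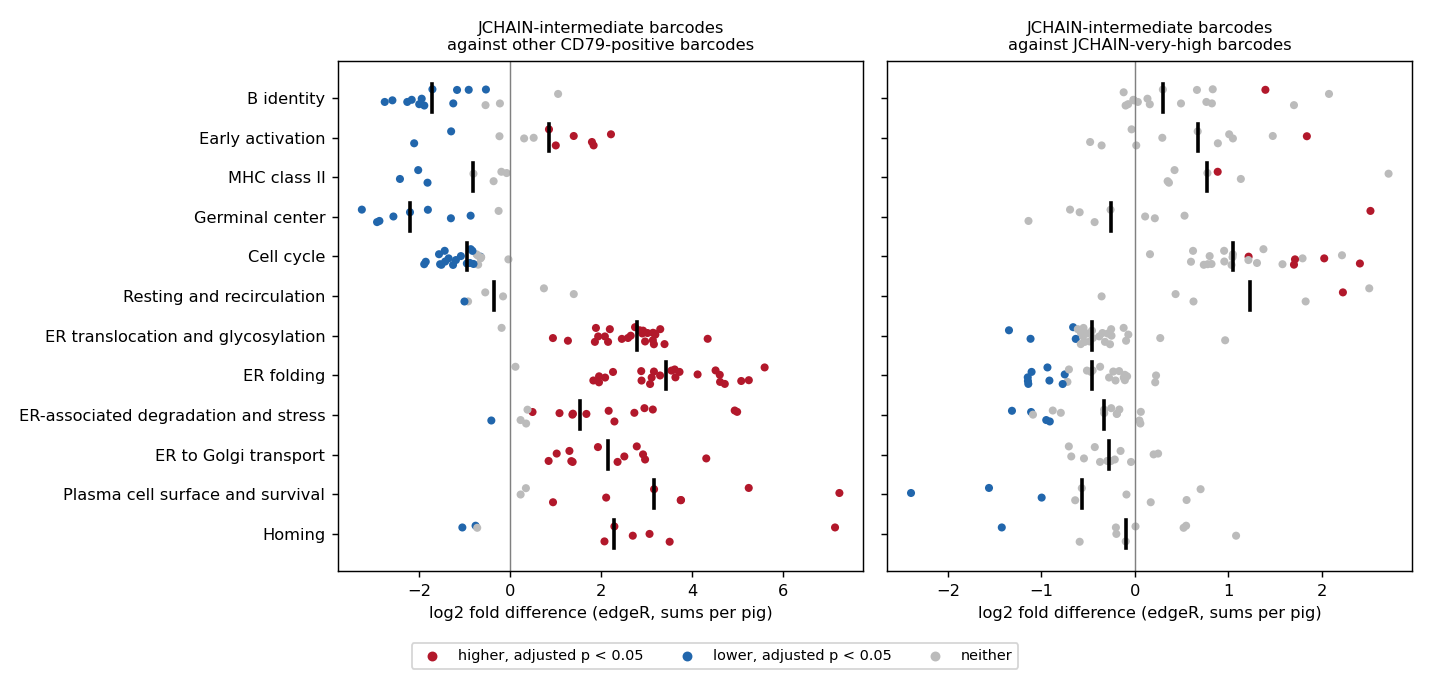
Log2 fold difference of every tested gene of 12 lists between JCHAIN-intermediate cells and other CD79-positive cells (left) or JCHAIN-very-high cells (right), from edgeR on sums per pig. Points are genes, red where called higher and blue where called lower in JCHAIN-intermediate cells, grey where neither, and black lines are list medians. The medians of the ER lists lie at 1.53 to 3.42 on the left and at -0.46 to -0.28 on the right, and those of B identity at -1.71 and 0.30. The ER medians on the right are at -0.38 to -0.21 with totals without the 7 features, and at 0.24 to 0.43 with totals without JCHAIN, where the median of all genes is 0.74.

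Relative to the bulk of genes, the medians of the 4 ER lists were lower in JCHAIN-intermediate cells than in JCHAIN-very-high cells, though most of their genes were not called. The medians stayed under that of all genes with both kinds of plain totals. Called secretory genes with values given below were lower by 0.63 to 1.35 log2 units. In CPM of all UMIs the order was the opposite. The lists of translocation, folding, degradation and stress, and ER to Golgi transport summed to 15589, 16941, 4721 and 1945 in JCHAIN-intermediate cells. In JCHAIN-very-high cells they summed to 12734, 13383, 3501 and 1332. Of 26 ER translocation and glycosylation genes 4 were lower and none higher (SEC11C, SEC61B, SPCS1 and SSR4, list median -0.45), of 24 ER folding genes 8 were lower (DNAJB9, FKBP11, FKBP2, MZB1, PDIA4, PRDX4, SIL1 and TXNDC5, median -0.46), and of 16 features for ER-associated degradation and stress 4 were lower (ATF4, DDIT3, DERL1 and HERPUD1, median -0.33). None of 12 ER to Golgi genes was called (median -0.28), KDELR1 among them at -0.68 ± 0.175 (edgeR adjusted p = 0.0711). With the pig as a block these counts were 12, 12, 6 and 2 lower, with 1 translocation gene higher and KDELR1 among those called. Without the library labelled whole ileum of pig 1 SSR4 and HERPUD1 were the ones left. With totals without the 7 features the 4 lists had 4, 8, 4 and 0 genes lower and none higher (medians -0.38, -0.38, -0.26 and -0.21). With totals without JCHAIN they had 4, 9, 2 and 3 higher and 1, 1, 2 and 0 lower, and their medians of 0.24, 0.24, 0.38 and 0.43 lay 0.49, 0.50, 0.36 and 0.31 under that of all genes. SSR4, PRDX4, HERPUD1 and ATF4 were the genes still lower there, while SEC61B, SPCS1 and KDELR1 changed sign.

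SSR4, a subunit of the translocon-associated complex, was at 1529 and 1432 CPM in JCHAIN-intermediate cells and at 3789 and 3746 in JCHAIN-very-high cells, a log2 difference of -1.35 ± 0.128 (SE, edgeR adjusted p = 2.19e-04). HERPUD1, which recruits misfolded proteins for degradation, was at 591 and 524 against 1397 and 1376 (-1.32 ± 0.149, adjusted p = 8.90e-04). For both genes the sums of either pig were more than 2-fold apart and the classes did not overlap. PRDX4 differed by -1.14 ± 0.142, FKBP11 by -1.15 ± 0.159, SEC11C by -1.12 ± 0.164, TXNDC5 by -0.94 ± 0.160, MZB1 by -0.75 ± 0.131 (though in CPM of all UMIs it was at 3568 and 2857 in PP of pig 1 and pig 2 against 3122 and 2667), SPCS1 by -0.66 ± 0.146 and SEC61B by -0.63 ± 0.136. The stress factors ATF4 and DDIT3 (CHOP) differed by -1.11 ± 0.144 and -0.95 ± 0.181, the latter a call lost without PP of pig 2 too.

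TNFRSF17 had the largest called difference among the surface genes. By library it was at 95.7 and 119 CPM of all UMIs in PP of pig 1 and pig 2, at 25.7 and 69.4 in the libraries labelled whole ileum, and at 0 and 70.3 in the 2 and 6 non-PP cells. On the scale of the fit it was at 67.1 and 88.6 per pig against 380 and 445 in JCHAIN-very-high cells, a log2 difference of -2.40 ± 0.215 (SE, edgeR adjusted p = 1.35e-04). It lay between the other CD79-positive and the JCHAIN-very-high sums, with no overlap on either side, and was seen in 31.2% of JCHAIN-intermediate and 75.8% of JCHAIN-very-high cells (9.35% and 24.8% at 1250 UMIs).

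SDC1 (CD138, -1.56 ± 0.279) and SLAMF7 (-0.998 ± 0.202) were the other surface genes called lower among 9 tested (list median -0.57), and CD38 was at 149 and 135 against 108 and 72.7 (0.70 ± 0.235, adjusted p = 0.164; called with the pig as a block). Of 9 homing genes CCR10 was the only one called, at 133 and 173 against 368 and 452 (-1.43 ± 0.201, adjusted p = 0.00394). SDC1, SLAMF7 and CCR10 were not called without the library labelled whole ileum of pig 1 or without pig 2, nor SLAMF7 without PP of pig 2.

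In the B identity, early activation, MHC class II and germinal center lists 1 gene each was called, and each was higher in JCHAIN-intermediate cells. Of 17 B identity genes MS4A1 was higher, at 125 and 169 against 56.7 and 55.7 (1.40 ± 0.225, edgeR adjusted p = 0.00865, list median 0.30), a call lost without PP of pig 2 and without pig 2. PAX5 was at 0.77 ± 0.394 (adjusted p = 0.424) and CD22, an inhibitory co-receptor, at 1.70 ± 0.425 (0.0641, called with the pig as a block). Of 11 early activation genes CD83 was higher (list median 0.67), of 7 MHC class II genes SLA-DRA (0.78), and of 9 germinal center genes RGS13, a regulator of G protein signalling, though 5 of the 9 had values below 0 and the list median was -0.26. With totals without the 7 features the same 4 genes were called and the germinal center median was -0.19. With totals without JCHAIN 10, 5, 6 and 2 genes of these lists were higher and none lower, and the germinal center median turned to 0.44, below the 0.74 of all genes.

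CD83 was at 74.99 and 61.8 CPM of all UMIs in PP of pig 1 and pig 2, at 216 and 84.9 in the libraries labelled whole ileum, and at 0 in the 8 non-PP cells, where 0 UMIs allow up to 155 and 70.3 in pig 1 and pig 2. The library labelled whole ileum of pig 1 was thus the highest by more than 2-fold. On the scale of the fit CD83 was at 113 and 65.9 per pig against 36.9 and 17.0 in JCHAIN-very-high cells, a log2 difference of 1.84 ± 0.382 (SE, edgeR adjusted p = 0.0287). The call was lost without either whole ileum library, without pig 2 and with a JCHAIN floor of 1%. CD83 was seen in 20.9% of JCHAIN-intermediate, 8.84% of JCHAIN-very-high, 36.7% of other CD79-positive and 6.999% of CD3E-positive cells (10.9%, 1.501%, 18.6% and 3.09% at 1250 UMIs).

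SLA-DRA differed by 0.89 ± 0.183 (adjusted p = 0.0281) and RGS13 by 2.52 ± 0.427 (adjusted p = 0.0110), and neither was called without the library labelled whole ileum of pig 1 or without pig 2. SLA-DRA was also lost without PP of pig 2 and without whole ileum of pig 2. CD74, the invariant chain, was at 2830 and 3282 against 2174 and 1402 (0.78 ± 0.194, adjusted p = 0.0641; called with the pig as a block), and SLA-DQB1 at 0.35 ± 0.196. CD69 was at 486 and 392 against 522 and 352 (0.01 ± 0.237, adjusted p = 0.987), and the classes overlapped.

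Cell cycle RNA was between that of the neighbours. Of 23 cell cycle genes 5 were higher than in JCHAIN-very-high cells and none lower, with a list median of 1.05 beside 0.03 for all genes. They were UBE2C, which drives exit from mitosis (209 and 295 against 62.4 and 88.1, 1.72 ± 0.251), BIRC5 (1.22 ± 0.215), MCM3 of the replicative helicase (2.41 ± 0.474), the PCNA-binding PCLAF (1.70 ± 0.371) and TK1. With the pig as a block 14 were called, with totals without the 7 features 6, with totals without JCHAIN 21, and without the library labelled whole ileum of pig 1 UBE2C alone. The calls of BIRC5, MCM3 and PCLAF were also lost without PP of pig 2, and that of MCM3 without PP of pig 1. LTB, which encodes lymphotoxin beta and is on the resting and recirculation list, was at 179 and 452 against 51.0 and 80.4 (2.23 ± 0.390), a call also lost without that library.

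Genes outside the lists with the widest called differences included ZNF70, at 1042 and 1494 CPM against 125 and 186 (3.01 ± 0.232, edgeR adjusted p = 5.47e-05), and ZP3, at 209 and 283 against 19.8 and 30.9 (3.21 ± 0.271, adjusted p = 9.97e-05). ZNF70 is given with doubt, since VPREB3, a B cell gene beside it in the RefSeq annotation of Sscrofa11.1, was not listed in the matrices, and reads of neighbouring genes could not be told apart. VPREB1, a surrogate light chain gene, differed by 2.91 ± 0.536 and GPR174, a lysophospholipid receptor, by 2.63 ± 0.425, and the calls of these 2 genes and of ZP3 were lost without the library labelled whole ileum of pig 1. MGP had no UMI in JCHAIN-very-high cells, and its level was at least 17.5-fold higher in JCHAIN-intermediate cells against a floor of 3 counts over that class, though from 2 cells.

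On the lower side stood NUPR1, a stress-induced chromatin protein, at 248 and 181 against 1380 and 1824 (-2.91 ± 0.259, adjusted p = 1.35e-04). It was seen in 57 of the JCHAIN-intermediate cells and in 188 of the JCHAIN-very-high cells, and it overlaps a long noncoding RNA in the RefSeq annotation. CD274 (PD-L1) differed by -2.20 ± 0.430, CHAC1, a stress-induced enzyme of glutathione breakdown, by -1.79 ± 0.391, CEBPB by -1.79 ± 0.302 and TLCD4 by -1.76 ± 0.212. CD274 and CHAC1 were not called without the library labelled whole ileum of pig 1, nor CHAC1 without PP of pig 2, and TLCD4 was not called without pig 2. Among the genes named in this comparison, the calls of SSR4, HERPUD1, TNFRSF17, ZNF70, NUPR1 and CEBPB held under every alternative tried. That of MGP held in the 11 in which it passed the filter on low counts. Its UMIs came from 1 cell of PP of pig 2 and 1 of the library labelled whole ileum of pig 1.

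Within the rule, the cells were not uniform, and other RNAs moved along the JCHAIN range. Cut at 1%, 2% and 4% JCHAIN, the range held 73, 42, 45 and 55 cells from low to high. CD83 was at 238, 62.4, 16.4 and 42.0 CPM of all UMIs in these steps, CD74 at 5563, 3435, 2464 and 1791, and RGS13 at 154, 51.4, 24.6 and 16.3. TNFRSF17 was at 32.5, 47.7, 68.4 and 163, TNFRSF13B at 37.9, 125, 189 and 268, and CCR10 at 29.7, 99.1, 191 and 297. The first 3 were at their highest in the lowest step and the latter 3 increased at every step, while PRDM1 stayed between 95.4 and 122 and XBP1 between 574 and 790. IRF4 was at 108, 136, 71.1 and 67.7, and it was lower at 2% JCHAIN or more than below 2% in each of the 4 patch libraries. The rule asked each cell for at least 1 UMI of these 3 factors. Such a UMI weighs more in CPM in the shallower cells below 2% (median 4440 UMIs, against 7328 above). The steps of these factors were thus partly fixed by the rule and are description only. Summed ER folding genes went from 11753 to 15850, 17499 and 21638, and summed MHC class II genes from 7778 to 5204, 3754 and 2732.

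The 100 cells with JCHAIN at 2% or more were compared with the 115 below 2%, at median depths of 7328 and 4440 UMIs, with edgeR on sums per pig. The split used JCHAIN in the same cells as the steps above, so genes that follow JCHAIN were bound to differ, and the test is not independent of those steps. Of 4836 genes tested 1.05% were called, of which 14 (0.289%) were higher and 37 (0.765%) lower in the upper range, with a median log2 difference of -0.01. With the pig as a block there were 72 higher and 117 lower, with DESeq2 85 and 81, and with totals without JCHAIN 21 and 26. Without the library labelled whole ileum of pig 1 only 1 and 8 were called, and without pig 2 none (670 genes had an unadjusted p below 0.05 in the full comparison). With a JCHAIN floor of 1% there were 2 higher and 3 lower. Those lower were CD79A, ZP3 and ZNF70, so the other lower calls named below were lost or not tested at that floor.

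CCR10 was higher in the upper range. It was at 83.3 CPM below 2% JCHAIN and 188 above in PP of pig 1, at 32.8 and 344 in PP of pig 2, at 46.6 and 218 in the library labelled whole ileum of pig 1, and at 70.7 and 249 in whole ileum of pig 2. All 4 upper sums lay above all 4 lower ones. Per pig the log2 difference was 2.00 ± 0.269 (SE, edgeR adjusted p = 0.00331), and CCR10 was the only one of 8 homing genes called.

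TNFRSF17 and TNFRSF13B were the 2 genes higher among 9 surface and survival genes. TNFRSF17 was at 41.6, 71.0, 9.32 and 21.8 below 2% JCHAIN and at 137, 158, 45.9 and 112 above, in PP of pig 1 and pig 2 and then whole ileum. It was higher above 2% in each of the 4 libraries, with a log2 difference per pig of 1.59 ± 0.303 (edgeR adjusted p = 0.0228). TNFRSF13B differed by 1.61 ± 0.276 (adjusted p = 0.0138). CCR10, TNFRSF17 and TNFRSF13B were not called without the library labelled whole ileum of pig 1, without pig 2 or with a JCHAIN floor of 1%. TNFRSF17 was also lost without PP of pig 1 or whole ileum of pig 2, and TNFRSF13B without PP or whole ileum of pig 2.

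B cell and antigen presentation genes went the other way. Of 16 B identity genes 4 were lower above 2% JCHAIN and none higher (list median -1.25): CD79A, at 89.2 and 80.9 per pig against 270 and 337 (-1.85 ± 0.230, adjusted p = 0.00233), MS4A1 (-1.36 ± 0.239), ID3 (-1.55 ± 0.297) and CD79B (-0.83 ± 0.182). MS4A1 was at 220, 399, 168 and 131 below 2% and at 82.3, 131, 57.3 and 102 above, lower in each of the 4 libraries though the ranges met. PAX5 was at -1.87 ± 0.532 (adjusted p = 0.114) and was called with a block. The call of MS4A1 was lost without PP of either pig, that of ID3 without PP of pig 1 or either whole ileum library, and that of CD79B without any 1 library but PP of pig 1. MS4A1, ID3 and CD79B were also not called with a JCHAIN floor of 1%.

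Of 7 MHC class II genes 3 were lower (CD74, SLA-DMB and SLA-DRA, list median -0.94). CD74 was at 2969, 5603, 5974 and 4500 below 2% and at 1839, 2917, 2431 and 1707 above, with every lower-range sum above every upper-range one (-1.18 ± 0.199, edgeR adjusted p = 0.0138). SLA-DRA differed by -0.94 ± 0.191 and SLA-DMB by -1.62 ± 0.347, while SLA-DQB1 was at -0.83 ± 0.207 (adjusted p = 0.0781, called with the pig as a block). None of these 3 calls held without either whole ileum library or with a JCHAIN floor of 1%. SLA-DRA was also lost without PP of pig 2 or non-PP of pig 1, and SLA-DMB without any 1 library.

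CD83 and CD69 were lower among 10 early activation genes (list median -0.50). CD83 was at 65.4, 131, 391 and 152 below 2% and at 82.3, 4.52, 0 and 24.4 above. PP of pig 1 was alone in having more CD83 above 2% than below. Per pig the log2 difference was -2.45 ± 0.439 (edgeR adjusted p = 0.0161), lost without either whole ileum library, without pig 2, with a JCHAIN floor of 1% and in cells with at least 3 CD79 UMIs. CD69 differed by -1.51 ± 0.270, and RGS13, the only germinal center gene of 9 called, by -2.47 ± 0.377, and neither was called without the library labelled whole ileum of pig 1. CD69 was also lost without PP of pig 2, RGS13 without whole ileum of pig 2, and both with a JCHAIN floor of 1%. CD83 was seen in 31.3% of cells below 2% JCHAIN and in 9% above (17.9% and 2.85% at 1250 UMIs).

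**Figure D3:**
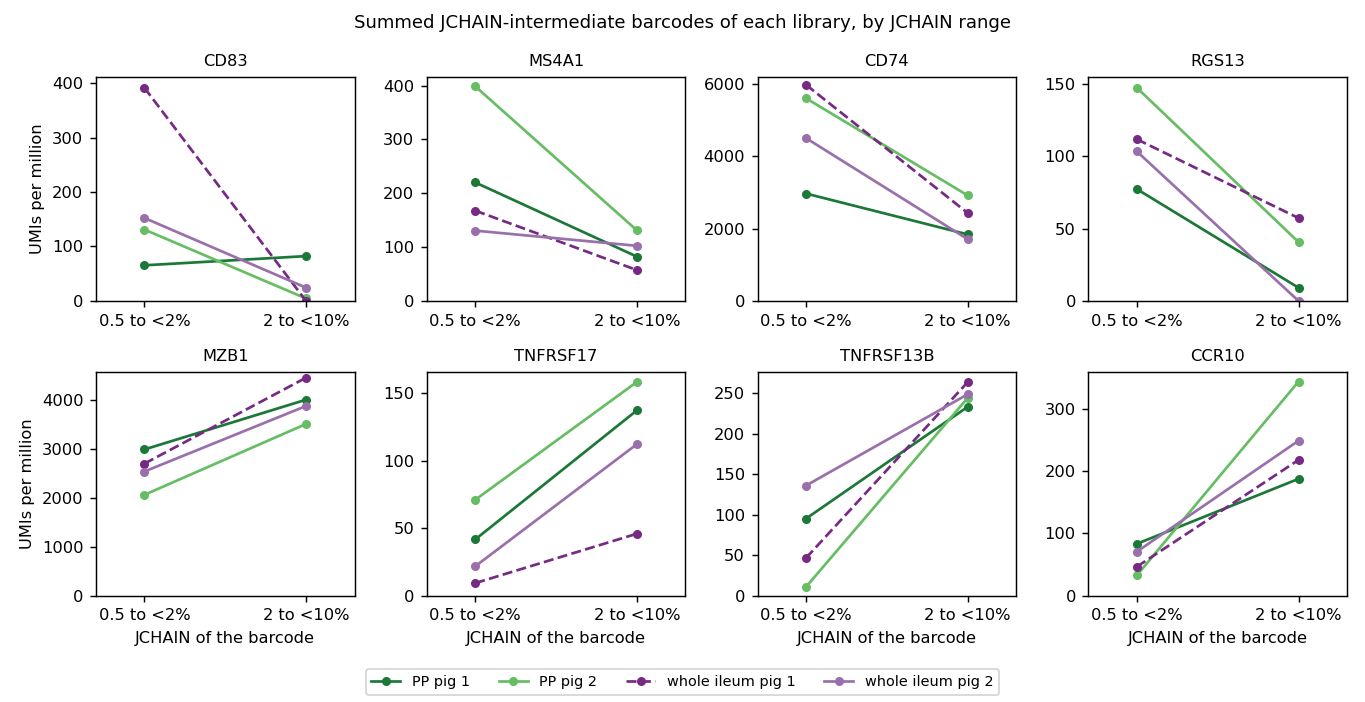
CPM of all UMIs for 8 genes in JCHAIN-intermediate cells summed per library, below and above 2% JCHAIN, for the 4 libraries with Peyer's patches (the library labelled whole ileum of pig 1 dashed). MS4A1, CD74 and RGS13 are lower and MZB1, TNFRSF17, TNFRSF13B and CCR10 higher above 2% in all 4 libraries, and CD83 is lower in 3 of 4.

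Secretory and cell cycle lists were not called along the range. None of 26 ER translocation genes (median 0.35), 24 ER folding genes (0.55), 14 degradation and stress genes (-0.08), 12 ER to Golgi genes (0.48), 23 cell cycle genes (0.22) or 6 resting and recirculation genes (-0.78) passed the test. With the pig as a block 3 translocation, 9 folding, 2 ER to Golgi genes and 1 cell cycle gene were called higher. MZB1 was at 4112 and 3551 per pig above 2% against 2850 and 2225 below (0.59 ± 0.149, edgeR adjusted p = 0.0777), MANF, a secreted ER stress factor, differed by 0.81 ± 0.181 (0.0537) and PCLAF by 0.78 ± 0.380 (0.390), and these 3 were called with the block.

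Outside the lists the widest called differences on the lower side were SCIMP, an adaptor of MHC class II signalling (-3.92 ± 0.511), ZP3 (-3.74 ± 0.268), GP2 (-3.62 ± 0.504), ZNF70 (-2.86 ± 0.282) and FCRL3, an Fc receptor-like protein of B cells (-2.78 ± 0.388). MGP was at 0 above 2%, which puts the level below 2% at least 33.2-fold higher against a floor of 3 counts over the upper range, again from 2 cells. On the higher side were ZCCHC17 (1.67 ± 0.365), S100A10 (1.54 ± 0.310) and CCDC50 (1.51 ± 0.237). The calls of CD79A, ZP3 and ZNF70 were lost only without pig 2. MGP was called in the 11 alternatives in which it passed the filter on low counts, and was not tested without the library labelled whole ileum of pig 1, without PP of pig 2 or without pig 2. FCRL3, CCDC50, S100A10 and ZCCHC17 were not called without the library labelled whole ileum of pig 1, SCIMP not without PP of either pig, S100A10 not without PP of pig 2 or non-PP of pig 1, and ZCCHC17 not without any 1 library but non-PP of pig 2.

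UMIs of B cell and ASC genes were present in the same barcodes, at shares near or below those of all 215 cells. Of the 86 cells with an MS4A1 UMI, 24 (27.9%) also had TNFRSF17 and 26 (30.2%) also had CCR10, beside 31.2% and 34.4% of all cells. Of the 45 with CD83, 18 (40.0%) had MS4A1, as had 40.0% of all cells, and 12 (26.7%) each had TNFRSF17 and CCR10. MZB1 was seen in 43 of these 45 and in 209 of the 215. Among CD3E-positive cells MZB1 was seen in 11.04% and MS4A1 in 11.5%, so a shared UMI alone does not show that a cell made both RNAs. TNFRSF17 and CCR10 were seen together in 40 cells, out of 67 and 74 with each. At these depths a missing UMI does not show that a gene was off.

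A few abundant features without a symbol took a large part of the RNA. The 6 such features above 1% made up 32.2% of all UMIs of JCHAIN-intermediate cells, 46.8% in JCHAIN-very-high cells and 1.31% in other CD79-positive cells. ENSSSCG00000039111 held 6.71% of UMIs in JCHAIN-intermediate and 0.396% in JCHAIN-very-high cells, and ENSSSCG00000037141 held 2.51% and 15.9%. Among the 6 features the former was the most abundant in 25 of 115 cells below 2% JCHAIN and 30 of 100 above, and the latter in 4 of 115 and 21 of 100. Their names are not paired with these identifiers in the tables used, and no test was made of them.

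The last comparison asked how the ileal cells differed from blood cells that met the same rule, 43 in pig 1 and 45 in pig 2. These 88 blood cells had a median of 9169 UMIs, XBP1 in 97.7%, PRDM1 in 56.8% and IRF4 in 72.7%. At least 3 CD79 UMIs were present in 29 (33.0%), T cell UMIs in 31 (35.2%) and CD83 in 2 (2.27%). Of 5739 genes tested with edgeR 11.5% were called, of which 431 (7.51%) were higher in ileum and 229 (3.99%) lower, with a median log2 difference of 0.01. Without the library labelled whole ileum of pig 1 there were 309 higher and 128 lower. Leaving out blood of pig 1 gave 224 and 101, and leaving out blood of pig 2 gave 273 and 126. Tissue and the handling of tissue cannot be told apart in this comparison, and the ileal sums are those used above.

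Ileal cells had more B cell, activation and germinal center RNA. Of 16 B identity genes 11 were higher and 1 (CD72) lower (list median 1.68), and without the library labelled whole ileum of pig 1 there were 8 and none. CD79A was at 181 and 205 CPM in ileum and 15.1 and 23.6 in blood (3.31 ± 0.263, edgeR adjusted p = 1.43e-05), MS4A1 at 134 and 182 against 24.5 and 30.4 (2.53 ± 0.242). The 2 tissues did not overlap in either gene. CD79B differed by 1.51 ± 0.185 and PAX5 by 2.31 ± 0.650. The call of PAX5 was lost without either whole ileum library, PP of pig 2 or blood of pig 1.

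Of 10 early activation genes 6 were higher and none lower (median 2.86). CD83 was at 122 and 70.8 in ileum and at 0 and 3.38 in blood (5.72 ± 0.665, adjusted p = 1.84e-04), CD69 at 524 and 421 against 26.4 and 69.2 (3.28 ± 0.361). BCL2A1, an inhibitor of cell death, differed by 4.07 ± 0.373 and NFKBIA, the NF-kappaB inhibitor, by 2.58 ± 0.266. NR4A1 had no UMI in the blood cells and was at least 28.9-fold higher in ileum, against a floor of 3 counts over the blood cells. Of 7 MHC class II genes CD74 (1.93 ± 0.197), SLA-DQB1 (1.12 ± 0.201) and SLA-DRA (1.02 ± 0.188) were higher.

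Of 9 germinal center genes 7 were higher and 1 (EZH2) lower, with MEF2B at 93.0 and 89.0 against 1.89 and 3.38 (5.08 ± 0.445) and RGS13 at 6.09 ± 0.696. The list median was 5.08, or 3.47 with NUGGC, which had no UMI in blood, at its bound of at least 16.3-fold. Of 23 cell cycle genes CENPF (-0.98 ± 0.258) and HMGB2 (-0.82 ± 0.217) were lower and none higher (median -0.31), with 2 lower with totals without the 7 features and 10 with totals without JCHAIN. Both calls were lost without PP of pig 1 and without either blood library, and that of CENPF without the library labelled whole ileum of pig 1.

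Trafficking genes separated ileum from blood in both directions. KLF2, the factor that drives recirculation, was at 36.2 and 32.9 in ileum and 275 and 280 in blood (-3.02 ± 0.445, edgeR adjusted p = 9.20e-04). Its target S1PR1, the receptor for exit from tissue, differed by -2.38 ± 0.558, while CCR7 was higher in ileum (3.42 ± 0.980, adjusted p = 0.0423). They were among the 4 of 7 resting and recirculation genes called (median -0.77), and CCR7 was not called without the library labelled whole ileum of pig 1, PP of pig 2 or either blood library. The call of S1PR1 was lost without blood of pig 1.

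Of 9 homing genes 4 were higher in ileum, among them CXCR4, at 210 and 182 against 3.77 and 11.8 (4.61 ± 0.322), CCR10, at 143 and 185 against 32.1 and 59.1 (1.84 ± 0.269), and GPR183 (1.68 ± 0.229). ITGB1, the beta chain of many matrix receptors, was at 13.8 and 25.6 in ileum and 255 and 238 in blood (-3.58 ± 0.236, adjusted p = 4.25e-06), and ITGA4 was also lower. CXCR4, CCR10, GPR183 and ITGB1 were each apart by more than 2-fold in both pigs.

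Secretory genes were called higher in ileum or not called. In the lists of ER translocation, ER folding, degradation and stress, and ER to Golgi transport, 3 of 26, 9 of 24, 6 of 16 and 1 of 12 were higher in ileum and none lower, with medians of 0.28, 0.44, 0.52 and 0.06. Without the library labelled whole ileum of pig 1 these counts were 2, 3, 4 and 1. HSPA5 (BiP), the main ER chaperone, differed by 1.27 ± 0.177, HERPUD1 by 1.89 ± 0.177 and DDIT3 by 2.08 ± 0.261. With totals without the 7 features they were 6, 11, 7 and 1, with none lower. With totals without JCHAIN 2 translocation genes were lower and none higher, and 2 folding genes were higher and 3 lower, as the median of all genes moved to -0.35 and 284 genes were higher and 970 lower overall. Of 9 surface and survival genes 4 were higher and TNFRSF17 was lower (median 0.86), with SLAMF7 at 2.61 ± 0.270 and SDC1 at 3.00 ± 0.552. Without the library labelled whole ileum of pig 1 there were 3 higher and TNFRSF17 was not called, with totals without the 7 features 4 were higher and none lower, and with totals without JCHAIN 2 were higher and 4 lower (CD38, ELL2, MCL1 and TNFRSF17).

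**Figure D4:**
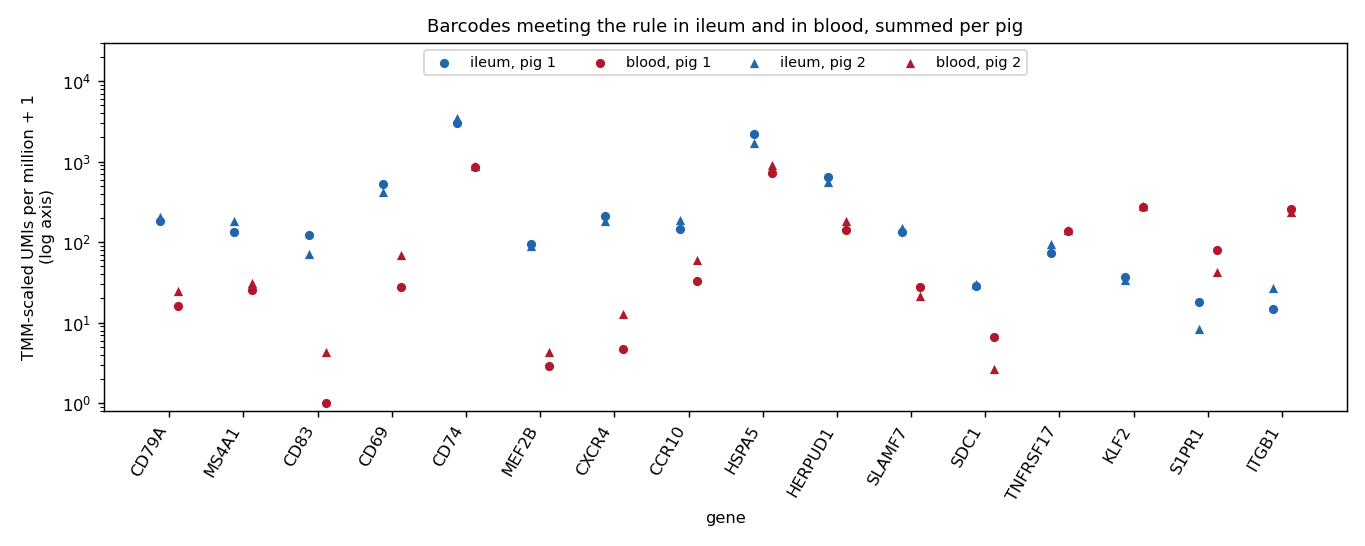
Level of 16 genes in cells meeting the rule in ileum (blue) and blood (red), as TMM-scaled CPM plus 1 on a log axis, with circles for pig 1 and triangles for pig 2. CD79A, MS4A1, CD83, CD69, CD74, MEF2B and CXCR4 lie above blood in both pigs, and TNFRSF17, KLF2, S1PR1 and ITGB1 below.

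Outside the lists, 4 further genes had no UMI in the blood cells. ZP3 was at least 102-fold higher in ileum, VPREB1 at least 69.5-fold, ITM2A at least 27.0-fold and MGP at least 21.1-fold, each against a floor of 3 counts over the blood cells, with MGP from 2 ileal cells. On the lower side were the hemoglobin gene HBB, at 12.1 and 4.88 in ileum and 890 and 246 in blood (-6.16 ± 0.737), NIPAL1 (-4.77 ± 0.824), LGALS1 (-3.75 ± 0.758) and S100A4 (-3.35 ± 0.535). HBB was seen in 82 of the 88 blood cells. The part of free RNA in HBB and in the other differences between ileum and blood was not tested. The calls of NIPAL1 and LGALS1 were lost without the blood library of pig 1.

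Expression in JCHAIN-intermediate cells of PP was not tested against those of non-PP, as the 2 and 6 non-PP cells fell below the minimum of 20 per library. CCR10 was at 142 and 203 CPM in PP and at 206 and 141 in non-PP, and MZB1 at 3568 and 2857 against 6035 and 4268. MS4A1 was at 142 and 252 in PP and at 0 and 46.9 in non-PP, and RGS13 at 38.8 and 89.1 against 0 in both, where 0 UMIs allow up to 155 and 70.3.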

How the data were processed

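Single-cell RNA-seq libraries of 8 samples (4 sequencing runs each, taken as 1 library) were used. The authors aligned reads with CellRanger to Sscrofa11.1 and deposited raw UMI counts for 25880 genes in all barcodes, from before their removal of ambient RNA, poor cells and doublets. The authors' lists of kept cells and annotations were not used here, so classes were rebuilt from thresholds. Symbols came from the matrices for 17733 features, from a name table for 977 and from a supplement of the study for 11, and 7159 stayed unnamed.

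Mitochondrial UMIs were those of the mitochondrially encoded protein genes. UMI counts of the classes were summed per pig over its libraries as labelled. Genes passing filterByExpr were tested with edgeR 4.0.16 (glmQLFit and glmQLFTest, TMM, Benjamini-Hochberg, called at adjusted p < 0.05) in R 4.3.3, with limma 3.58.1 and, as an alternative, DESeq2 1.42.0. Each fit also held the neighbouring classes, so TMM-scaled values of the same cells differ slightly between comparisons, and values per library are CPM of all UMIs. Fits were tested on simulated counts, with 200 genes changed among 6334. The changed genes were drawn from the more abundant ones only, and the classes otherwise had the same profile. For JCHAIN-intermediate against JCHAIN-very-high cells, 68% of those changed by 1 log2 unit and 99% of those changed by 2 were recovered. Recovery of genes with few UMIs, or between classes as unlike in composition as the real ones, was not tested. Doublets were scored against simulated doublets at a rate of 0.07 and kept, and removed only as an alternative. Shares at 1250 UMIs are expected values under thinning, which left out no cell. Figures were drawn with matplotlib 3.10.9, and tables made with pandas 2.3.3 and scipy 1.17.1 under Python 3.11.15.

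The cells and gene lists were chosen with earlier results of these data known. Text names up to 4 genes per list with the smallest p, MS4A1, PAX5, CD69, CD83, SLA-DRA and SLA-DQB1, and the 6 called genes with the largest and the 6 with the smallest log2 difference outside the rule genes, immunoglobulin and Y-linked genes (same sign in both pigs, at least 20 CPM). TNFRSF17 and CCR10 detection, PRDM1 and XBP1 steps and pairs of genes were added after values were seen. Classes share pigs, so sums pair by animal: pig differences correlated across genes at 0.095, 0.181 and 0.199 between class pairs. Alternatives were DESeq2, library totals without JCHAIN in place of TMM, no low-count filter, the pig or library as a block, a JCHAIN floor of 1%, removal of doublets or of cells with T cell UMIs, and leaving out each library or pig, and, chosen after seeing the data, totals without the 7 features above 1% in place of TMM and cells with at least 3 CD79 UMIs. Some genes that this rule selects are not reported here. No promoter or protein sequence was used.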

Additional observations from a re-analysis of the deposited data

How the results depend on the processing

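The PP minus non-PP difference in share of 0.691 percentage points was 0.444 with a JCHAIN floor of 1%, 0.495 without cells that had T cell UMIs and -9.34 as a percent of B-lineage cells, and lay between 0.637 and 0.745 when 1 library was left out. Genes higher and lower against JCHAIN-very-high cells (58 and 97) were 111 and 238 with DESeq2, 1779 and 36 with totals without JCHAIN in place of TMM (81 and 82 without the 7 most abundant features), 155 higher with no low-count filter, 37 higher without cells with T cell UMIs, and 5 to 110 and 17 to 179 when 1 library or pig was left out (7 and 21 without the library labelled whole ileum of pig 1, 29 higher without PP of pig 2, 5 and 17 without pig 2). Against other CD79-positive cells (1133 and 824) they were 600 and 3236 with those totals, 1305 lower with no filter, 539 lower with at least 3 CD79 UMIs, and 559 to 1115 and 337 to 825 with 1 library or pig left out, lowest without pig 2. Along the JCHAIN range (14 and 37) they were 85 and 81 with DESeq2, 41 and 100 with no filter, 2 and 3 with a floor of 1%, 21 lower without cells with T cell UMIs, 8 and 11 with at least 3 CD79 UMIs, and 0 to 21 and 0 to 69 with 1 library or pig left out (1 and 8 without the library labelled whole ileum of pig 1, 6 and 20 without PP of pig 2, 8 and 18 without whole ileum of pig 2, 58 lower without PP of pig 1). For ileum against blood (431 and 229) they were 284 and 970 with totals without JCHAIN, 218 and 109 with a floor of 1%, 269 and 138 with at least 3 CD79 UMIs, and 224 to 438 and 101 to 238 with 1 library left out (128 lower without the library labelled whole ileum of pig 1, 224 and 101 without blood of pig 1, 273 and 126 without blood of pig 2). Without 1 pig the fit used sums per library of the other as labelled, and for blood this left no test. The replicates of such a fit were dissections and not animals. Without pig 2 they included the library labelled whole ileum of pig 1, so that fit does not test the animal.

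With the pig as a replicate block the counts were 198 and 267 against JCHAIN-very-high cells and 72 and 117 along the JCHAIN range, and with sums per library and the library as a block 179 and 257, and 86 and 118. The library labelled whole ileum of pig 1 puts this pairing by animal, and the separation of the sums by animal, in doubt. The block moved the counts of the other comparisons by less than 1.5 times (1316 and 1038 against other CD79-positive cells, 536 and 315 against blood).

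Totals without JCHAIN, which still held 6 abundant features with no symbol, shifted the median of all genes to 0.74, -0.71, 0.08 and -0.35 in the 4 comparisons in the order above, beside 0.098, -0.15, -0.037 and 0.079 with totals without those features too, and against JCHAIN-very-high cells the first turned SEC61B to 0.062, SPCS1 to 0.035 and KDELR1 to 0.016. CD69 in that comparison became -0.038 with DESeq2, -0.48 with a floor of 1% and -0.014 with doublets removed, and ranged from -0.15 to 0.169 with 1 library or pig left out (-0.006 without non-PP of pig 2, -0.15 without PP of pig 2, -0.024 without the library labelled whole ileum of pig 1, -0.072 without pig 2). Against other CD79-positive cells CD83 became 0.187 without cells with T cell UMIs and 0.213 with at least 3 CD79 UMIs, and ranged from -0.588 (without the library labelled whole ileum of pig 1) to 0.122 (without pig 2), and SLA-DRA became 0.039 with at least 3 CD79 UMIs and ranged from -0.36 (without pig 2) to 0.017 (without pig 1). None of these reversed values was called, and their causes were not tested. Of 2729 values of the named genes under alternatives, 2377 kept their direction and side of the threshold, 241 lost the call, 56 gained it, 40 moved and 15 reversed. With n = 2 sums per class and 215 cells, genes with few UMIs were not resolved.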
